A study of Mus musculus with 6 samples.

Results

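The colony-stimulating factors and a set of receptors best known from myeloid cells were examined in carcinoma cells in which the netrin pathway had been lowered. The 8 genes, Csf1, Il34, Csf1r, Csf2, Csf3, Mrc1, Cd14 and Cd68, were chosen by name from the 49671 genes of the deposited table, and each was found on 1 row. The RNA-seq libraries came from LKPR EPCAM+ cells, an epithelial line sorted from primary mouse skin squamous cell carcinoma that carries Lgr5CreER together with p53fl/fl and Rosa26-YFP+/+. All 3 groups therefore share Cre under control of Lgr5, a stem cell gene, with the floxed p53 alleles and the YFP reporter. All groups also share puromycin selection after lentiviral transduction, and they differ in the vector, which was empty (treatment label control), or carried a knockdown of Ntn1, the gene of the secreted ligand netrin-1, or of Unc5b, the gene of a netrin receptor. Each group had 2 libraries, made at day 6 of culture from living cells sorted as positive for YFP and EPCAM. The cells come from 1 line, the number of hairpin sequences is not given in the sources used here, and nothing says that the libraries of a group come from separate cultures, so a p-value here reflects the spread of these libraries alone, and that spread may be technical.

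Macrophage colony-stimulating factor (Csf1) and interleukin-34 (Il34) are ligands of the same receptor tyrosine kinase, encoded by Csf1r, and they keep macrophages alive. In skin, IL-34 made by keratinocytes maintains Langerhans cells. Granulocyte-macrophage colony-stimulating factor (Csf2) and granulocyte colony-stimulating factor (Csf3) act through other receptors, made of Csf2ra with Csf2rb and of Csf3r, and tumour cells can secrete both. Mrc1 encodes the macrophage mannose receptor, Cd14 the co-receptor that hands lipopolysaccharide to Toll-like receptor 4, and Cd68 a lysosomal glycoprotein used as a macrophage marker.

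All levels are the authors' whole-number values, scaled to 20 M per library, with means given ± SD over n = 2 libraries. From the spacing of low values, 1 read was worth 1.97 to 3.06 in this unit, which puts the depth at 6.54 to 10.2 M reads per library, and 3 reads correspond to 5.9 to 9.17. The estimated depth was lowest in the Ntn1 knockdown (8.41 and 6.54 M reads). Each targeted gene was lowest in its own knockdown. Ntn1 was at 1566 and 2588 in the empty vector, 359 and 431 in the Ntn1 knockdown and 1319 and 771 in the Unc5b knockdown, and Unc5b was at 1527 and 1573, 2311 and 2382, and 419 and 352 in the same order. All 10 epithelial markers read passed the filter, and their summed values were 59340 to 70582 in the 6 libraries. The sum joins genes that moved apart in the limma test described below. In the Ntn1 knockdown 2 were called higher, among them Krt5, and 3 lower, Krt19, Trp63 and Cldn4. Krt5 was called higher and Krt19 lower in the Unc5b knockdown. Of all genes, 15.1% and 12.0% were called in these comparisons with the empty vector. Ribosomal protein genes held less of the total in the Ntn1 knockdown (1.68% and 1.72%) than in the empty vector (2.08% and 2.22%) or the Unc5b knockdown (2.02% and 2.14%), and the part of this in the results was not tested.

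Differences were tested with limma on log2(value + 5), a scale that understates the change of low genes, over the 15330 genes whose mean over all 6 libraries reached 20. A gene was called changed at a Benjamini-Hochberg adjusted p under 0.05, and with 2 libraries a group no exact permutation p could be smaller than 0.333. All 8 genes passed the filter, Mrc1 only through its level in the knockdown libraries. In the Ntn1 knockdown against the empty vector, 5 of the 8 were called, 3 higher (Csf2, Csf3 and Mrc1) and 2 lower (Csf1 and Csf1r). Over all genes tested, 15.1% were called in that comparison, 8.04% higher and 7.06% lower. In the Unc5b knockdown, 2 of the 8 were called, both higher (Csf2 and Mrc1), against 12.0% of all genes, 5.90% higher and 6.07% lower. Between the knockdowns, 3 of the 8 were called, Mrc1 higher and Csf1 and Csf1r lower in the Ntn1 knockdown, against 7.10% of all genes, 4.15% higher and 2.95% lower. Libraries of the groups did not overlap for all 8 genes in the Ntn1 knockdown against the empty vector, 6 higher and 2 lower, where 58.2% of all genes did not overlap, 28.0% higher and 30.2% lower. For the Unc5b knockdown this held for 7 of the 8, 5 higher and 2 lower, against 52.0% of all genes, 28.7% higher and 23.2% lower. Between the knockdowns it held for all 8, 5 higher and 3 lower in the Ntn1 knockdown, against 55.6% of all genes, 24.4% higher and 31.3% lower. The comparisons with the empty vector share their control libraries, so agreement between them is not independent. The median log2 difference of the 8 genes was 0.87, 0.59 and 0.28 in these comparisons, and that of all genes tested was -0.02, 0.04 and -0.05. In bulk libraries fewer cells of a type and less RNA per cell cannot be told apart.

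**Figure D1:**
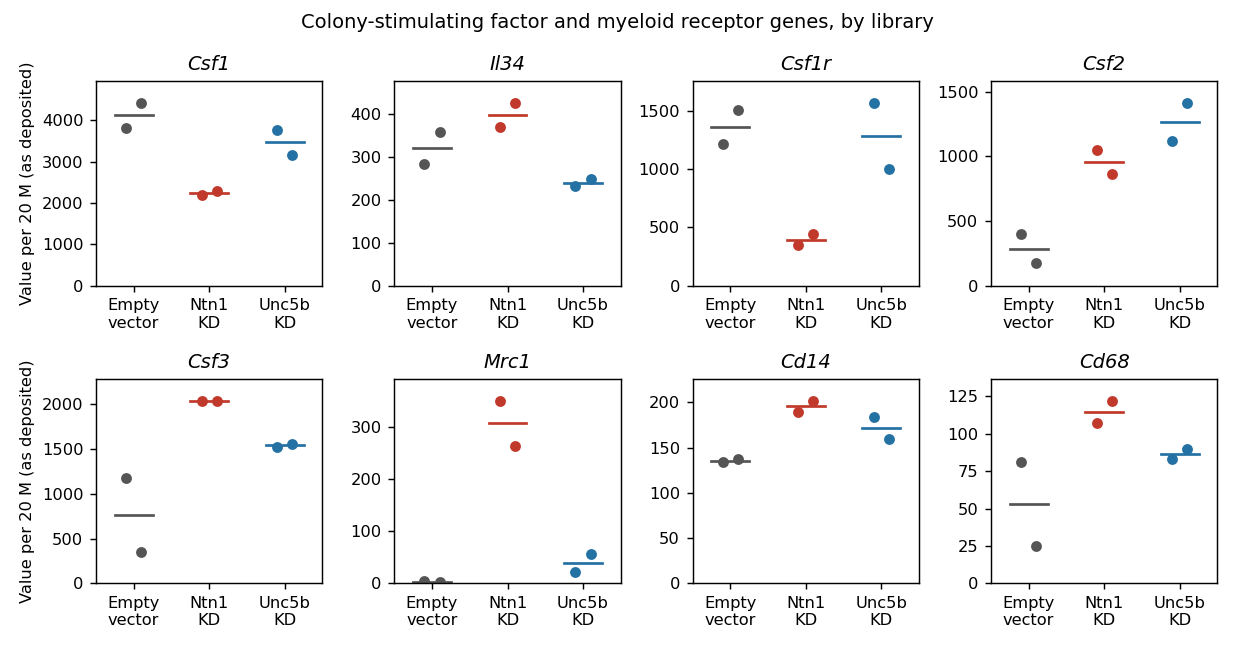
Values as deposited, per 20 M, for each of the 8 genes, with 1 point per library and a line at the mean of the 2 libraries of each group (KD, knockdown), on axes that start at 0 and differ between genes. Csf1 and Csf1r sit lowest in the Ntn1 knockdown, Csf2 and Csf3 lowest in the empty vector, and Mrc1 lies at 2 to 4 in the empty vector and at 263 and 350 in the Ntn1 knockdown.

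Csf1, the ligand of the macrophage receptor, was the most abundant of the 8 genes by deposited value in every library. It was at 3815 and 4415 in the empty vector, 2199 and 2290 in the Ntn1 knockdown and 3762 and 3166 in the Unc5b knockdown. Both Ntn1 knockdown libraries lay below the other 4 libraries, and the Unc5b knockdown libraries lay just below the empty vector. Csf1 (ENSMUSG00000014599, GRCm38 chromosome 3, 107741048 to 107760469, minus strand, 12 merged exons) fell 1.83-fold in the Ntn1 knockdown (log2 difference -0.87 ± 0.13 SE, limma adjusted p = 0.00358). Its difference in the Unc5b knockdown was -0.25 ± 0.13 (95% interval -0.55 to 0.05, adjusted p = 0.26), and it was 1.54-fold lower in the Ntn1 than in the Unc5b knockdown (-0.62 ± 0.13, adjusted p = 0.0271). The call against the empty vector was lost without Ntn1 knockdown library 1 (adjusted p = 0.0653) or 2 (0.0524). That between the knockdowns was lost in 7 of 15 alternatives, among them each alternative that left out 1 of the 4 knockdown libraries (0.0574 to 0.249) and a replicate block (0.0787).

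The window around an annotated start of Csf1 (chr3:107760420-107760719, minus strand, RefSeq on GRCm38.p6) is shown because Csf1 is the ligand that fell. The capitals mark a match to the kappaB consensus, the site type of NF-kB factors.

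Csf1 promoter: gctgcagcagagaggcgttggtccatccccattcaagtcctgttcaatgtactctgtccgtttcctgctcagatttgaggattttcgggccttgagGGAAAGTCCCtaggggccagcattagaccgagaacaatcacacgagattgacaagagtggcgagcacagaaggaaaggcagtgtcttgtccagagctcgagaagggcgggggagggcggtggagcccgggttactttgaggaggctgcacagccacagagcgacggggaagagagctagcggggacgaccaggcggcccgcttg

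The match lies at positions -154 to -145 from the RefSeq start on the opposite strand (GGGACTTTCC). Of 32851 RefSeq promoter windows of the same length, 8.46% hold a kappaB match on either strand. The AP-1 letters TGANTCA (in 7.81% of windows), TATAAA (13.6%) and the ETS-type letters GAGGAA (28.3%), searched on both strands with overlaps allowed, are not in this window.

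Il34, the second ligand of the same receptor, did not pass in any of the 3 comparisons. It was at 283 and 357 in the empty vector, 369 and 425 in the Ntn1 knockdown and 231 and 248 in the Unc5b knockdown. The 3 groups did not overlap, with the Ntn1 knockdown highest and the Unc5b knockdown lowest. Between pairs of groups 52.0% to 58.2% of all genes tested did not overlap either, and the share with all 3 groups apart was not counted. The log2 difference was 0.31 ± 0.19 in the Ntn1 knockdown (95% interval -0.12 to 0.74, limma adjusted p = 0.306) and -0.40 ± 0.19 in the Unc5b knockdown (-0.83 to 0.03, adjusted p = 0.216). Between the knockdowns it was 0.71 ± 0.19 (0.28 to 1.15, adjusted p = 0.0595), which passed with TMM (0.0484) or median-of-ratios scaling (0.0454) and in 5 of 15 alternatives in all. Il34 (ENSMUSG00000031750, chromosome 8, 110741829 to 110805924, minus strand) shares 5% of its exon length with the antisense genes Gm15894 and Gm15895, at 36 to 88 and 16 to 52 per library. The strand setting of the counting is not given in the sources used here, so reads of overlapping genes on opposite strands cannot be told apart.

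Set against exon length, Csf1 exceeded Il34 in every library. Per kilobase of merged exon, Csf1 was at 779 ± 80.3 and Il34 at 163 ± 26.7 in the empty vector. In the Ntn1 knockdown the same levels were 425 ± 12.2 and 203 ± 20.2, and in the Unc5b knockdown 656 ± 79.8 and 122 ± 6.14. The ratio of Csf1 to Il34 per kilobase was 5.0 and 4.59 with the empty vector, 2.21 and 2.0 in the Ntn1 knockdown and 6.04 and 4.74 in the Unc5b knockdown. This ratio does not depend on how a library was scaled. It was lower in both Ntn1 knockdown libraries than in the other 4.

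Csf1r, which encodes the receptor of both ligands, was measured at more than 100 estimated reads in every library of these sorted carcinoma cells. It was at 1213 and 1511 in the empty vector, 347 and 443 in the Ntn1 knockdown and 1569 and 1003 in the Unc5b knockdown. Only the Ntn1 knockdown lay apart, and the Unc5b knockdown libraries enclosed the empty vector values. Csf1r (ENSMUSG00000024621, chromosome 18, 61100598 to 61132149, plus strand) was 3.45-fold lower in the Ntn1 knockdown than in the empty vector (-1.77 ± 0.23, limma adjusted p = 0.00193), a fall called in all 15 alternatives. It was 3.26-fold lower in the Ntn1 than in the Unc5b knockdown (-1.67 ± 0.23, adjusted p = 0.00608). In the Unc5b knockdown against the empty vector its difference was -0.11 ± 0.23 (95% interval -0.64 to 0.42, adjusted p = 0.812). The difference between the knockdowns lost its call without Ntn1 knockdown library 1 (adjusted p = 0.106) or 2 (0.0633) and with no filter (0.0557).

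Part of the Csf1r exon length, 15.1%, overlaps the gene Hmgxb3 on the other strand. Hmgxb3 was at 1332 and 1020 in the empty vector, 1493 and 1489 in the Ntn1 knockdown and 1652 and 1726 in the Unc5b knockdown. Its log2 difference in the Ntn1 knockdown was 0.35 (limma adjusted p = 0.147), and the part of its reads in the values of Csf1r was not tested. Per kilobase, Csf1r was at 236 ± 36.5 in the empty vector, 68.4 ± 11.8 in the Ntn1 knockdown and 223 ± 69.3 in the Unc5b knockdown, below Csf1 in every library. The ratio of Csf1 to Csf1r per kilobase was 3.44 and 3.19 in the empty vector, 6.93 and 5.65 in the Ntn1 knockdown and 2.62 and 3.45 in the Unc5b knockdown.

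**Figure D2:**
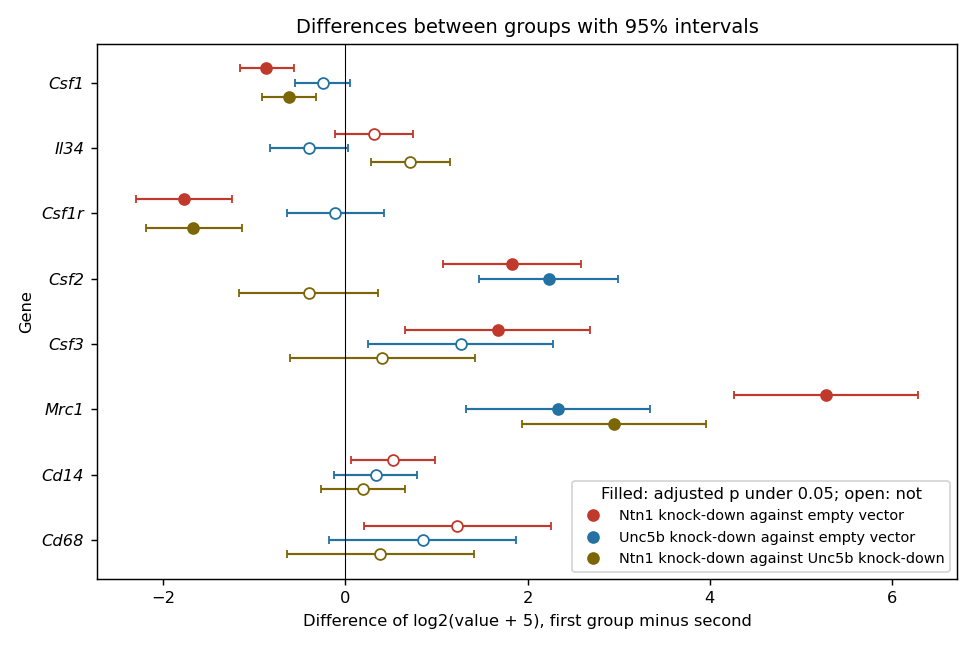
Difference between groups in log2(value + 5) for each of the 8 genes, with 95% intervals from limma, in the 3 comparisons. Filled points passed at an adjusted p under 0.05 and open points did not; Csf2 lies to the right of 0 in both comparisons with the empty vector, and Csf1 and Csf1r lie to the left of 0 with filled points in the comparisons that involve the Ntn1 knockdown.

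Csf2, the granulocyte-macrophage factor, rose in both knockdowns. It was at 399 and 174 in the empty vector, 1049 and 862 in the Ntn1 knockdown and 1120 and 1413 in the Unc5b knockdown. Each knockdown library was above both empty vector libraries, which were themselves 2 to 3 times apart. Csf2 (ENSMUSG00000018916, chromosome 11, 54247271 to 54249667, minus strand) rose 3.34-fold in the Ntn1 knockdown (1.83 ± 0.33, limma adjusted p = 0.00853) and 4.42-fold in the Unc5b knockdown (2.23 ± 0.33, adjusted p = 0.00452). Between the knockdowns the log2 difference was -0.40 ± 0.33 (95% interval -1.17 to 0.36, adjusted p = 0.527). Without empty vector library 1 the rises were 2.42 and 2.82 on the log2 scale, and without library 2 they were 1.24 and 1.64. The call in the Ntn1 knockdown was lost without its library 1 (adjusted p = 0.0992) or 2 (0.0673), and both calls were lost with no filter (0.0656 and 0.053).

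The antisense gene Gm12223 overlaps 12% of the Csf2 exon length and moved with it. It was at 149 and 87 in the empty vector, 435 and 401 in the Ntn1 knockdown and 462 and 591 in the Unc5b knockdown, and it rose in both (log2 difference 1.83, limma adjusted p = 0.00304, and 2.15, adjusted p = 0.0019). How reads in the shared stretch were assigned is not stated in the labels. The part of Gm12223 in the rise of Csf2 was not tested.

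Csf3, the granulocyte factor, was at 1171 and 345 in the empty vector, 2033 and 2037 in the Ntn1 knockdown and 1524 and 1554 in the Unc5b knockdown. The knockdown libraries agreed closely within each group, while the empty vector libraries were more than 3-fold apart. Csf3 (ENSMUSG00000038067, chromosome 11, 98701263 to 98703629, plus strand) rose 2.68-fold in the Ntn1 knockdown (1.67 ± 0.44, limma adjusted p = 0.0389). In the Unc5b knockdown the difference was 1.27 ± 0.44 (95% interval 0.25 to 2.28, adjusted p = 0.107), and between the knockdowns 0.40 ± 0.44 (-0.61 to 1.42, adjusted p = 0.647). The rise in the Ntn1 knockdown was called in only 7 of 15 alternatives, and was lost with a replicate block (adjusted p = 0.0503), without the variance trend (0.119), with no filter (0.155), with only the 4 libraries compared (0.0681) and without any 1 of the 4 knockdown libraries (0.0657 to 0.202). Its size rested on the empty vector libraries, at 2.54 without library 1 and 0.79 without library 2, and in the Unc5b knockdown at 2.14 (adjusted p = 7.31e-05) and 0.39 (0.0973).

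Both factors are known for short-lived mRNAs that carry AU-rich elements, repeats of ATTTA in the DNA letters, after the coding sequence. The stretches of 30 bases with the most such repeats are shown because Csf2 and Csf3 are the secreted factors that rose, with ATTTA in capitals. They were read from GENCODE M21 transcripts of GRCm38, at chr11:54247320-54247349 on the minus strand for Csf2 and chr11:98702992-98703021 on the plus strand for Csf3.

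Csf2 AU-rich stretch: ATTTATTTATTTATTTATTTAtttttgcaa
Csf3 AU-rich stretch: ATTTAtctctATTTAatATTTAtgcatatt

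The Csf2 stretch holds 5 overlapping ATTTA repeats, and 0.274% of the 20832 genes compared have at least as many in some stretch of that length after the coding sequence. The Csf3 stretch holds 3, a number reached by 2.59% of these genes, whose untranslated regions differ in length. In Csf1 the highest count was 2 (18.9% of genes), and in Il34, Csf1r, Mrc1 and Cd14 it was 1. Cd68 had 0.

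Receptors for the secreted factors that rose were near or at 0. Csf3r was listed at 0 in all 6 libraries. With 1 read worth an estimated 1.97 to 3.06, a listed 0 stands for no counted read. It does not exclude a true level up to the worth of 3 reads, 5.9 to 9.17 in the deposited unit. Csf2rb, the signalling chain of the Csf2 receptor, was listed at 0 in 5 libraries and at 6 in Unc5b knockdown library 1. Csf2ra, the ligand-binding chain, was at 16 and 23 in the empty vector, 12 and 9 in the Ntn1 knockdown and 2 and 2 in the Unc5b knockdown. These 3 genes were below the filter and were not tested.

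Mrc1, the macrophage mannose receptor gene, had the largest log2 difference of the 8 genes in the Ntn1 knockdown and between the knockdowns. It was at 4 and 2 in the empty vector, about 2.0 and 0.9 estimated reads. It was at 350 and 263 in the Ntn1 knockdown, and at 21 and 56 in the Unc5b knockdown, about 9.8 and 24.2 estimated reads. The 3 groups lay apart, with the Unc5b knockdown libraries between the others, and the share of all genes with 3 groups apart was not counted. Mrc1 (ENSMUSG00000026712, chromosome 2, 14229392 to 14332057, plus strand, 29 merged exons) rose in the Ntn1 knockdown by 5.28 ± 0.44 on the log2(value + 5) scale (limma adjusted p = 0.00035) and in the Unc5b knockdown by 2.33 ± 0.44 (adjusted p = 0.0124). With so few reads in the empty vector these sizes depend on the added constant, at 6.30 and 3.19 with 1 added and 3.82 and 1.28 with 20 added. Between the knockdowns, where both groups were measured above the worth of 3 reads, it was 7.96-fold higher in the Ntn1 knockdown (2.95 ± 0.44, adjusted p = 0.00828). The rise in the Ntn1 knockdown was called in all 15 alternatives. That in the Unc5b knockdown was lost with no filter (adjusted p = 0.0769), with only the 4 libraries compared (0.0531) and without Unc5b knockdown library 2, the higher of the pair (1.71, adjusted p = 0.0817). The difference between the knockdowns was lost without Ntn1 knockdown library 1 (0.13) or 2 (0.0943) and with no filter (0.0625).

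The RefSeq window around the Mrc1 start (chr2:14229164-14229463, plus strand, GRCm38.p6) is shown because Mrc1 moved most. Capitals mark GAGGAA, the core of sites bound by ETS factors such as PU.1, read on the opposite strand.

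Mrc1 promoter: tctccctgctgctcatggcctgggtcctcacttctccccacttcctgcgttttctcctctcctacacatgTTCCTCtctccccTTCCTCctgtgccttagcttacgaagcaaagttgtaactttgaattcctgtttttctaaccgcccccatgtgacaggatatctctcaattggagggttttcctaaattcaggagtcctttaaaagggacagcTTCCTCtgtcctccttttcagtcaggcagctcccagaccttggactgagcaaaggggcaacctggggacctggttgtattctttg

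It holds 3 GAGGAA matches, at positions -180 to -175, -167 to -162 and -35 to -30 from the start, and at least 1 is present in 28.3% of all windows. The letters TATAAA are not in the window, and no match to the AP-1 letters or the kappaB consensus is either. Spi1, the gene of PU.1 and itself a marker of myeloid cells, was listed at 0 in 5 libraries and at 2 in empty vector library 2. The ETS factor genes Ets1 and Ets2 were at 748 to 1819 and at 6018 to 7177 in the 6 libraries. Binding to this window was not tested.

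Cd14 and Cd68 did not pass in any comparison. Cd14 (ENSMUSG00000051439, chromosome 18, 36725067 to 36726798, minus strand, 1 exon) had values of 134 and 137 in the empty vector, 190 and 202 in the Ntn1 knockdown and 184 and 160 in the Unc5b knockdown. The groups with a knockdown lay above the empty vector and next to each other. The log2 difference was 0.52 ± 0.20 in the Ntn1 knockdown (95% interval 0.06 to 0.98, limma adjusted p = 0.126) and 0.33 ± 0.20 in the Unc5b knockdown (-0.13 to 0.79, adjusted p = 0.34). Between the knockdowns it was 0.19 ± 0.20 (-0.27 to 0.65, adjusted p = 0.642).

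Cd68 (ENSMUSG00000018774, chromosome 11, 69664213 to 69666153, minus strand) had values of 81 and 25 in the empty vector, 107 and 122 in the Ntn1 knockdown and 83 and 90 in the Unc5b knockdown. As with Csf2 and Csf3, empty vector library 2 was the lowest of the 6. The log2 difference was 1.23 ± 0.45 in the Ntn1 knockdown (0.20 to 2.26, limma adjusted p = 0.106) and 0.85 ± 0.45 in the Unc5b knockdown (-0.18 to 1.87, adjusted p = 0.27). Between the knockdowns it was 0.38 ± 0.45 (-0.64 to 1.41, adjusted p = 0.669). Cd68 passed against the empty vector only without empty vector library 1 (adjusted p = 0.0043 and 0.0125), that is, against library 2 alone.

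The order of the 8 genes by level per kilobase differed between the groups. In the empty vector Csf1 (779 ± 80.3), Csf3 (536 ± 413), Csf2 (358 ± 199) and Csf1r (236 ± 36.5) followed each other with overlapping libraries, above Il34 (163 ± 26.7), Cd14 (78.2 ± 1.22), Cd68 (42.2 ± 31.5) and Mrc1 (0.471 ± 0.222). In the Ntn1 knockdown the secreted factors Csf3 (1440 ± 2) and Csf2 (1194 ± 165) stood first, then Csf1 (425 ± 12.2) and Il34 (203 ± 20.2). Csf1r (68.4 ± 11.8) came after Cd14 (113 ± 4.9) and Cd68 (91.1 ± 8.44) and just above Mrc1 (48.1 ± 9.66). In the Unc5b knockdown Csf2 (1583 ± 259) was first and Csf3 (1089 ± 15) second, followed by Csf1 (656 ± 79.8), Csf1r (223 ± 69.3), Il34 (122 ± 6.14), Cd14 (99.3 ± 9.8), Cd68 (68.8 ± 3.94) and Mrc1 (6.04 ± 3.88). In both knockdowns no neighbours in the order had overlapping libraries.

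Csf1r, Mrc1, Cd14 and Cd68 are used to recognise myeloid cells, so other defining markers of those cells were read in the same libraries. Of 23 myeloid markers with a row of their own, 11 were listed at 0 in all 6 libraries: Adgre1, Lyz2, Fcgr1, C1qa, C1qb, C1qc, Tyrobp, Laptm5, Cybb, Mpo and Ms4a7. The pan-leukocyte gene Ptprc was at 0 to 5, and Itgam, which stands on 2 rows and was left out of the list, at 0 to 2 on each. The summed level of the list was 179 and 384 in the empty vector, 515 and 605 in the Ntn1 knockdown and 436 and 289 in the Unc5b knockdown. Of its genes that passed the filter, S100a8, which keratinocytes also express, rose in the Ntn1 knockdown from 2 and 7 to 97 and 135 (limma adjusted p = 0.000655) and in the Unc5b knockdown to 79 and 76 (adjusted p = 0.00154). Like Mrc1, S100a8 passed the filter only through the knockdown libraries, where it is high. All 8 lymphocyte markers were at or under the worth of 3 reads in every library, with sums of 0 to 4.

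**Figure D3:**
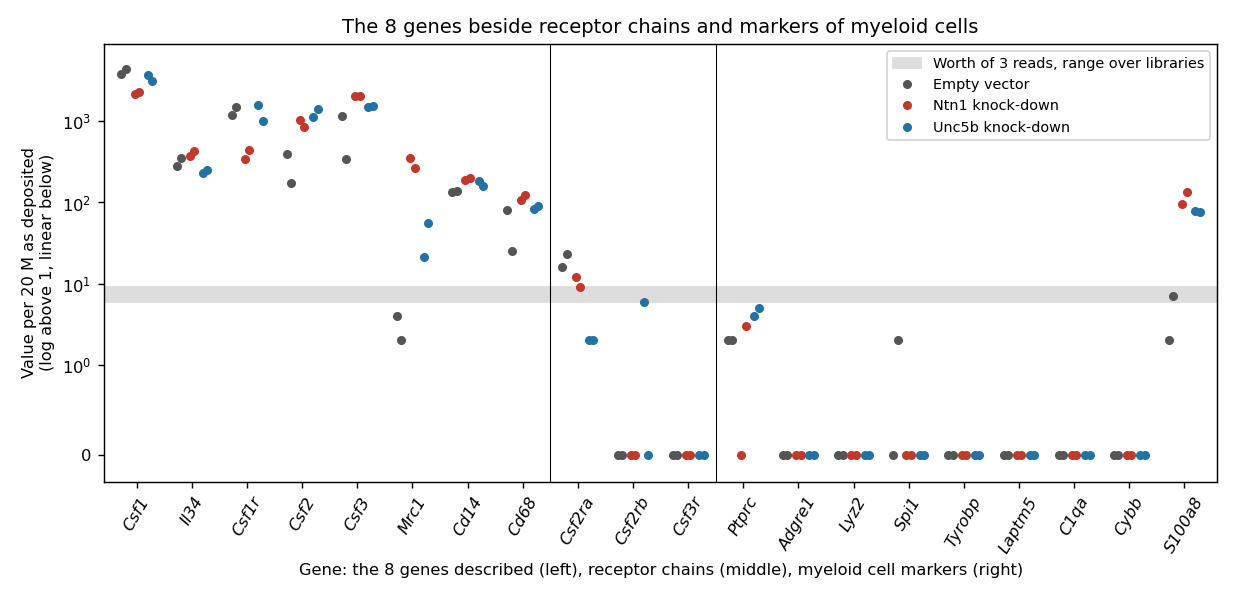
Values as deposited, per 20 M, on an axis that is logarithmic above 1 and linear below, with 1 point per library; the grey band is the worth of 3 reads, 5.9 to 9.17. Csf1r, Cd14 and Cd68 lie above the band in every library, while Csf3r, Adgre1, Lyz2, Tyrobp, Laptm5, C1qa and Cybb lie at 0 in every library.

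Mrc1 is also a gene of lymphatic endothelium, so endothelial markers were read as well. Erg and Sox17 were listed at 0 in all libraries, and 5 of the 12 markers passed the filter. Cdh5, the gene of VE-cadherin, had a listed value of 0 in both empty vector libraries. It reached 86 and 113 in the Ntn1 knockdown, where it was called higher (limma adjusted p = 0.000725), and was at 2 and 0 in the Unc5b knockdown. Cdh5 passed the filter only through the Ntn1 knockdown libraries, where it is high. Stab1, a scavenger receptor gene, rose in the Ntn1 knockdown (1.19, adjusted p = 0.00212) and in the Unc5b knockdown (0.99, adjusted p = 0.00587), and Flt4 fell in both (-1.62, called in 13 of 15 alternatives, and -4.95). Pecam1 was at 88 to 107, Lyve1 at 21 to 55 and Prox1 at 0 to 7. The summed level of the list was 2558 and 2371 in the empty vector, 2839 and 3109 in the Ntn1 knockdown and 2175 and 2147 in the Unc5b knockdown, and its part in the level of Mrc1 was not tested. Of 10 fibroblast markers, 2 passed the filter (Col1a1 and Pdgfra) and 0 were called by limma in any comparison, with sums of 136 to 313. At an unadjusted p under 0.05, 1 of them stood in the Ntn1 knockdown against the empty vector (Pdgfra, 0.0301) and 0 in the others. Over all genes tested, 15.1% and 12.0% were called against the empty vector and 7.10% between the knockdowns. The 2 fibroblast genes are too few to set against these shares.

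Around the receptor Csf1r, 3 of 18 measured members of the CSF1R signalling list rose and 1 fell in the Ntn1 knockdown, where 8.04% of all genes were called higher and 7.06% lower. Gab2, a docking adaptor, rose from 140 and 151 to 713 and 660 (4.72-fold, limma adjusted p = 0.000257), Dok1 rose 2.12-fold (adjusted p = 0.00356) and the ubiquitin ligase gene Cbl 1.41-fold (adjusted p = 0.0227), while Dok2 fell 1.59-fold (adjusted p = 0.016). The Unc5b knockdown had 3 that rose, Gab2 1.95-fold, Dok1 1.56-fold and the kinase gene Src 1.38-fold, and Plcg2 fell 2.19-fold, against 5.90% and 6.07% of all genes. The median log2 difference of the list was 0.10 and 0.00 in these comparisons, and that of all genes -0.02 and 0.04. Of the calls in the Unc5b knockdown, that of Src held in 4, Dok1 in 6, Plcg2 in 7 and Gab2 in 14 of 15 alternatives. The calls in the Ntn1 knockdown held in 15 for Gab2, 14 for Dok1, 13 for Dok2 and 10 for Cbl. Between the knockdowns Gab2 was 2.42-fold higher and the kinase gene Lyn 1.84-fold lower in the Ntn1 knockdown, called in 13 and 8 of 15 alternatives. Tyrobp, an adaptor that works with the receptor in macrophages, was listed at 0 in all libraries.

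Among genes that process or also bind the CSF1R ligands, Sdc1 rose in both knockdowns. It encodes syndecan-1, a proteoglycan that binds IL-34, and was at 6411 and 5700 in the empty vector, 12711 and 11543 in the Ntn1 knockdown (2.0-fold, limma adjusted p = 0.000934) and 8868 and 8531 in the Unc5b knockdown (1.44-fold, adjusted p = 0.0186). The call in the Ntn1 knockdown held in all 15 alternatives and that in the Unc5b knockdown in 7 (adjusted p up to 0.0909). Of the 3 measured members of this list Sdc1 was the only one called in any of the 3 comparisons. The shares of all genes called were 15.1% and 12.0% against the empty vector and 7.10% between the knockdowns. Adam17, whose protease sheds CSF1 from the cell surface, was at 1788 and 1683 in the empty vector, 2368 and 2189 in the Ntn1 knockdown (adjusted p = 0.0541) and 2370 and 2191 in the Unc5b knockdown (adjusted p = 0.0614). Ptprz1, another IL-34 receptor, was at 0 to 5.

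Of the genes whose proteins work with CD14, Tlr4 was at 385 to 534 and its accessory gene Ly96 at 50 to 115, and neither passed. Lbp, which encodes the protein that brings lipopolysaccharide to CD14, was at 0 to 37 and below the filter, and Tlr1, Tlr6 and Ticam2 were at 0 to 2. Of 13 measured genes of the CD14 and Toll-like receptor list, 2 rose and 1 fell in the Ntn1 knockdown, namely Cd180, which encodes a TLR4-related receptor (4.49-fold, limma adjusted p = 0.000494), the feedback gene Tnfaip3 (2.51-fold, adjusted p = 0.000431) and the adaptor gene Ticam1 (2.06-fold lower, adjusted p = 0.025, called in 9 of 15 alternatives). Of the same genes, 1 rose in the Unc5b knockdown, Tnfaip3 (2.7-fold, adjusted p = 0.000439). The shares of all genes called in these comparisons were 15.1% and 12.0%. Between the knockdowns Cd180 was 2.78-fold higher in the Ntn1 knockdown (adjusted p = 0.00583, called in 13 of 15 alternatives). The median log2 difference of the list was -0.14, 0.03 and -0.11 in the 3 comparisons.

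Few relatives of Mrc1 and Cd68 were measured. In the mannose receptor family only Ly75 passed the filter, and it was 1.47-fold lower in the Ntn1 knockdown (limma adjusted p = 0.0204, called in 10 of 15 alternatives) and 1.42-fold lower there than in the Unc5b knockdown (adjusted p = 0.0475, called in 6), while its log2 difference in the Unc5b knockdown was -0.05 (adjusted p = 0.859). Mrc2 was at 0 to 12 and Pla2r1 at 0 to 7. Of 5 measured LAMP family and scavenger receptor genes, Stab1 alone was called, higher in each knockdown. Of all genes, 8.04% were called higher in the Ntn1 knockdown and 5.90% in the Unc5b knockdown. Stab1 was also read among the endothelial markers, so this is the same call. The abundant lysosomal genes Lamp1 (10154 to 17105) and Lamp2 (4882 to 8764) did not pass in any comparison, and Cd163, Msr1, Marco and Cd36, scavenger receptors of macrophages, were at 0 to 3.

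Factors that bind colony-stimulating factor genes or shorten their mRNAs were read from a list of 28, of which 27 were measured. In the Ntn1 knockdown 2 rose and 7 fell, with a median log2 difference of -0.16, where 8.04% of all genes were called higher and 7.06% lower. For the Unc5b knockdown 3 rose and 4 fell, with a median of 0.06, against 5.90% and 6.07% of all genes. Jun, an AP-1 subunit, rose from 1401 and 1221 to 3384 and 2987 in the Ntn1 knockdown (2.43-fold, limma adjusted p = 0.000856) and to 2434 and 2865 in the Unc5b knockdown (2.02-fold, adjusted p = 0.00298). Fos (2.63-fold), Fosl2 (1.99-fold) and Fosb (1.89-fold), other AP-1 subunits, fell in the Ntn1 knockdown. So did Junb (1.81-fold, limma adjusted p = 0.00376, called in 14 of 15 alternatives) and Jund (1.39-fold, 0.0272, called in 9). Fosl1 went the other way there without a call (0.91, adjusted p = 0.103). Junb, Jund and Fosl1 were named for this knockdown after their values were seen. In the Unc5b knockdown Fosl2 (1.77-fold) and Junb (1.6-fold) fell. Zc3h12a, which encodes the RNase Regnase-1, rose 2.15-fold in the Unc5b knockdown (adjusted p = 0.00429) and, named after its value was seen, 1.76-fold in the Ntn1 knockdown (adjusted p = 0.0127). Zfp36, whose protein tristetraprolin binds AU-rich elements, was at 2451 to 3701 and did not pass in either (adjusted p = 0.529 and 0.389). In the Unc5b knockdown its relative Zfp36l2 (-0.66, adjusted p = 0.0103, called in 12 of 15 alternatives) and the decay factor gene Khsrp (-0.39, adjusted p = 0.0489, called in 5) fell. The remaining call there was Nfkb1, an NF-kB subunit gene, which rose (0.48, limma adjusted p = 0.0269, called in 6). Zfp36l2, Khsrp and Nfkb1 were named after their values were seen. Of the other calls against the empty vector named here, those of Fosb (11) and Zc3h12a (11) in the Ntn1 knockdown and of Junb (12) in the Unc5b knockdown did not hold in all 15 alternatives. Between the knockdowns, 1 was higher in the Ntn1 knockdown, Ets1 (2.0-fold), and 3 were lower, Fosb, Nfatc1 and Fos, with a median of -0.16, against 4.15% and 2.95% of all genes. These calls held in 8 (Fos) to 12 (Nfatc1) of 15 alternatives.

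**Figure D4:**
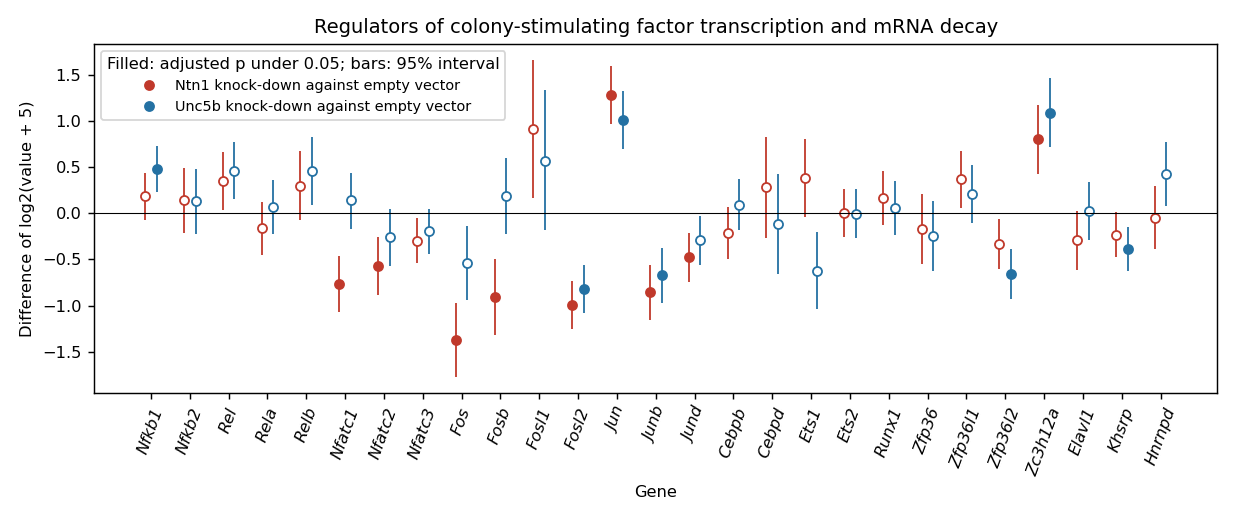
Difference in log2(value + 5) from the empty vector for the 27 measured regulators of colony-stimulating factor transcription and mRNA decay, with 95% intervals, in the Ntn1 and the Unc5b knockdown, which share their control libraries. Filled points passed at an adjusted p under 0.05; Jun and Zc3h12a lie above 0 and Fosl2 and Junb below 0 with filled points in both.

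For each gene called at least once, the 3 genes with the most similar profile over the 6 libraries were found by the root mean square difference of centred log2(value + 5) values. With 6 libraries in 3 groups, many genes share such a profile. Nearest to Csf1 were Dlg5 (0.04), Map2k5 (0.05) and Sppl2a (0.05), and nearest to Csf1r were Qrfp (0.15), Gm43305 (0.16) and Dpysl2 (0.19). The genes closest to Csf2 were Dgat2 (0.12), its overlapping antisense gene Gm12223 (0.14) and Magi2 (0.14), and those closest to Csf3 were Mfsd2a (0.13), Pglyrp2 (0.13) and Dagla (0.16). Mrc1 was closest to the wound keratin gene Krt6a (0.26), which was at 14 and 7 in the empty vector, 789 and 731 in the Ntn1 knockdown and 62 and 176 in the Unc5b knockdown, then to the connexin gene Gjb2 (0.37) and to Gm44342 (0.39), whose exons overlap those of Krt6a. Like Mrc1, the genes Krt6a, Gjb2 and Gm44342 passed the filter only through the knockdown libraries, where they are high. Exons of other annotated genes also overlap those of Krt5, Cd180, Stab1, Jun, Junb, Lyn, Adam17, Ly75, Lamp1 and Zfp36. The same holds for Zfp36l2, Khsrp, Pdgfra, Il3ra, Epo, Dlg5, Magi2 and Pglyrp2. The values of all these genes carry the same uncertainty as that of Csf2.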

How the data were processed

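RNA was measured in 6 libraries. The authors' deposited values were treated as scores, since each library is scaled to a sum near 20 M and rounded to whole numbers. STAR, Picard, HTSeq and the build GRCm38 (mm10) come from the submitters' processing notes. How reads were counted, on which strand and annotation, and how values were scaled is not given in the sources used here. Genes, lists and tests were all chosen with earlier results of these data known. What 1 read is worth was estimated as the step of which low values are whole multiples within a rounding tolerance of 0.5. The steps were 1.97 to 3.06, and 100.0% of low values lay on them in each library. With such steps 32.7% to 50.7% of whole numbers lie on them by chance, so the depth is an estimate and no count model was fitted. A model with 3 groups was fitted to log2(value + 5) in R 4.3.3 (limma 3.58.1) with a variance trend, 3 residual and 5.33 prior degrees of freedom, after the script was tested on simulated data. Fold values are ratios of group means as deposited. Intervals are unadjusted. All 8 genes were named, with the 3 most similar genes to each one called, and up to 4 called genes of each list by size. Positions and exon lengths come from GENCODE M21, and promoter windows from RefSeq, which held 4 of the 8 genes. The equal replicate numbers did not pair the libraries. Alternatives were other constants, filters and scalings, no variance trend, 4 libraries only, a replicate block and leaving out each library. Some items of the genotype and the lists are not reported here.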

Additional observations from a re-analysis of the deposited data

How the results depend on the processing

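Under 15 alternatives, the 8 genes kept the direction of every called difference. Csf1r in the Unc5b knockdown against the empty vector, which did not pass, turned from -0.11 to 0.21 without Unc5b knockdown library 2 and to 0.05 without empty vector library 2, and ranged from -0.43 to 0.21 when 1 library was left out. The number of the 8 genes called in the Ntn1 knockdown against the empty vector was 5, and was 3 with no filter and 2 to 6 when 1 library was left out. In the Unc5b knockdown it was 2, and was 0 with no filter (2 at an unadjusted limma p under 0.05), 1 with only the 4 libraries compared and 1 to 4 when 1 library was left out. Between the knockdowns it was 3, and was 0 with no filter (4 at an unadjusted p under 0.05), 5 with only the 4 libraries compared and 0 to 5 when 1 library was left out. Over all genes tested, 2314 were called in the Ntn1 knockdown, against 1289 with no filter, 1462 with no variance trend and 507 to 2769 when 1 library was left out. The Unc5b knockdown gave 1835, against 791 with no filter, 1115 with no variance trend, 950 with only the 4 libraries compared and 680 to 2428 when 1 library was left out. Between the knockdowns 1088 were called, against 302 with no filter, 454 with no variance trend, 1856 with only the 4 libraries compared and 34 to 1842 when 1 library was left out. A group left with 1 library is assumed to vary like the others. With a replicate block, 1465, 1102 and 459 genes were called in the 3 comparisons. Over 15330 genes the deviations of same-numbered libraries correlated at r = -0.45 between the empty vector and the Unc5b knockdown, 0.16 between the empty vector and the Ntn1 knockdown and -0.169 between the knockdowns, so the numbers were not taken to pair them. The cause of these changes was not tested. Scaling moved the median difference of all genes by less than 0.1. Depth limits what can be said of Mrc1 in the empty vector and of genes at or under the worth of 3 reads.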

Other observations

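Other growth factors of blood cells were expressed by these carcinoma cells. Kitl, which encodes stem cell factor, fell in both knockdowns, from 1541 and 2540 in the empty vector to 478 and 508 in the Ntn1 knockdown (4.14-fold, limma adjusted p = 0.00439, called in 13 of 15 alternatives) and to 618 and 329 in the Unc5b knockdown (4.31-fold, adjusted p = 0.00419). Its receptor gene Kit was listed at 0 in all 6 libraries. Flt3l, the ligand gene of the receptor Flt3, stands on 2 rows, the larger at 4152 to 6258 and the smaller at 43 to 92, and was left out of the list. Flt3 was at 6 and 9 in the empty vector, 38 and 52 in the Ntn1 knockdown and 6 and 21 in the Unc5b knockdown, and was called higher in the Ntn1 knockdown (2.0 on the log2 scale, adjusted p = 0.0308). Flt3 passed the filter only through the Ntn1 knockdown libraries, where it is high, and its call held in 10 of 14 alternatives. Of the 4 genes of this list that passed the filter, Kitl, Flt3, Il3ra and Epo, the last 2 were not called by limma in any comparison, and 0 were called between the knockdowns, where Flt3 alone had an unadjusted p under 0.05 (0.0137). Over all genes tested, 15.1% and 12.0% were called against the empty vector and 7.10% between the knockdowns. The 4 genes are too few to set against these shares. The interleukin-3 gene Il3, which neighbours Csf2, was at 0 to 6.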
